A study of Condylura cristata and Mus musculus with 12 samples.

Results

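The voltage-gated, calcium-activated, sodium-activated and inward rectifier potassium channels and their accessory subunits were described in sensory ganglia of the star-nosed mole and the mouse. Members were all genes whose symbol is Kcn followed by further letters and a number, with the exception of the Kcnk genes and of 1 inward rectifier that the selection left out. This gave 79 members among 33773 genes of the mole count table and 77 among 26125 genes of the mouse table, with Kcnj18 and Kcnmb3 listed for the mole alone. The mole RNA came from trigeminal ganglia (TG), which supply the nasal star and the face, and dorsal root ganglia (DRG), which supply the body, of adult wild males (3 libraries per ganglion). The mouse RNA came from the same ganglia of adult C57BL/6 females (2 libraries per ganglion analysed here). By the study's methods each library came from 1 animal, except 1 mole DRG library that combined 2 moles. Species, sex and strain cannot be told apart in any comparison between mole and mouse.

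Potassium channels set the resting potential of sensory neurons, end each action potential and limit how often a neuron can fire. The voltage-gated families assemble from pore-forming subunits that are active on their own (Kcna, Kcnb, Kcnc, Kcnd, Kcnh, Kcnq), from silent subunits that join Kcnb channels (Kcnf, Kcng, Kcns, Kcnv) and from accessory subunits without a pore (Kcnab, Kcne, Kcnip). Other members open with intracellular calcium (Kcnm, Kcnn) or sodium (Kcnt), or pass current best near or below the resting potential (Kcnj).

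Every pore-forming member shares a short stretch of coding sequence, the selectivity filter, through which potassium ions pass. The windows below show it for members on which the comparisons turn, in part as pairs of relatives. Each is 75 coding bases of the mouse transcript (GENCODE M21, GRCm38), 5′ to 3′ on the coding strand, and the 15 filter bases are in capitals.
Kcna2: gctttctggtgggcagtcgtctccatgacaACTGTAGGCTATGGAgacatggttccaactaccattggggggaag
Kcna6: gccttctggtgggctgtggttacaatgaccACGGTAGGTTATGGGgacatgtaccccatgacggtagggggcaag
Kcnh3: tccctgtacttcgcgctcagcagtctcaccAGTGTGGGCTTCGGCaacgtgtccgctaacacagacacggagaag
Kcnh4: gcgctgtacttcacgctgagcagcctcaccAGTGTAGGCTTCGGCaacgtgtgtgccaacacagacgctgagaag
Kcnj4: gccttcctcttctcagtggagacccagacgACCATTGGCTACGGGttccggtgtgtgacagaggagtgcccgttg
Kcnt2: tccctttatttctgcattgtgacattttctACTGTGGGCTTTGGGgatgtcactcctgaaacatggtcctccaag

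The Kcna2 window lies at chr3:107105194-107105268 on the plus strand, in exon 3 of 3. The Kcna6 window lies at chr6:126738617-126738691 on the minus strand, in exon 1 of 2. The Kcnh3 window lies at chr15:99232899-99232973 on the plus strand, in exon 8 of 15, and the Kcnh4 window at chr11:100750263-100750337 on the minus strand, in exon 8 of 17. The Kcnj4 window lies at chr15:79485337-79485411 on the minus strand, in exon 2 of 2, and the Kcnt2 window at chr1:140425248-140425322 on the plus strand, in exon 9 of 27. The letters searched were ACNNTNGGNTNNGGN, in frame on the coding strand only, where N is any base. They occurred in 51 of the 62 pore-forming members with a reference sequence, in 0 of 16 accessory members and in 0.836% of 22483 coding genes. With a serine codon (TCN or AGN) allowed first, as in Kcnh3 and Kcnh4, all 62 pore-forming members held a match, again 0 of 16 accessory members did, and 2.01% of coding genes did. Kcnh3 and Kcnh4 shared 64 of the 75 window bases and 14 of the 15 filter bases, Kcna2 and Kcna6 shared 55 and 12, and Kcnj4 and Kcnt2 shared 30 and 10. Reads from such stretches could be assigned to the wrong member, so counts of members with near copies, such as Kcnh3 and Kcnh4, are uncertain to that extent. Read assignment itself was not examined, and only these windows were compared.

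The authors deposited read counts, whose totals were between 8409670 and 92323879 in the mole and between 90548941 and 147076817 in the mouse, with mole DRG 3 the deepest of the mole. Replicate 1 of both mole ganglia came from another library kit than the rest, and mole TG 1 and mole DRG 2 stood apart: ranked by member levels, mole TG 1 and TG 2 correlated at 0.890 and mole TG 2 and TG 3 at 0.971, and mole DRG 2 and DRG 3 at 0.939 and mole DRG 1 and DRG 3 at 0.984. In the mouse, Hox genes, which mark trunk and limb levels of the body, went against the labels. Of 8 Hox genes tested in each species, 7 were called with more in the mole DRG and 0 with less, while in the mouse all 8 were called with more in libraries labelled TG. Their summed level was 12.7 to 18.1 CPM (counts scaled to a common library total) for the TG and 158 to 179 for the DRG of the mole. For the mouse it was 66.7 to 74.7 CPM by the label TG and 1.88 to 2.52 by the label DRG, where Hoxb5 had 0 counts. Hoxd1, which is outside that list and was looked at after its values were seen, stood at 22.8 and 21.2 CPM by the label TG and 21.3 and 44.7 by the label DRG (log2 change -0.58, edgeR adjusted p 0.456). Mouse libraries are therefore called by their labels throughout, and every mouse direction rests on those labels.

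Members took 0.232% to 0.333% of the counts of mole libraries and 0.466% to 0.502% of those of mouse libraries. The 2 tables were counted in different ways, so these shares are given side by side with no test. Levels of different genes were compared as CPM per kb of the mouse transcript, which stands in for the mole length. On that scale and averaged over the ganglia, the most abundant member of both species was Kcnab2, a cytoplasmic subunit of the Kcna channels, at 103 ± 63.7 in the mole TG and 117 ± 20.003 in the mole DRG (SD, n = 3). Kcnh2, the slow repolarising channel also known from the heart, followed at 71.1 ± 5.59 and 74.2 ± 1.91 CPM per kb, and Kcna1, a channel of the axon beside the node of myelinated fibres, at 69.0 ± 72.4 and 71.8 ± 17.2. The order of Kcnh2 and Kcna1 was not beyond the spread of the libraries. In mouse TG and DRG by label, Kcnab2 stood at 228 ± 13.9 and 238 ± 53.4 CPM per kb and Kcna1 at 159 ± 3.93 and 243 ± 1.74 (SD, n = 2). The order of Kcnab2 and Kcna1 was the other way in the labelled DRG, within the spread of its libraries, and in mole TG 1, where they stood at 29.6 and 153 CPM per kb. The 12 most abundant members held 74.9% of the summed level per kb in the mole and 75.3% in the mouse, and 10 of these were the same in both species, among them Kcnab2, Kcna1, Kcnh2, Kcnd1, Kcns3, Kcnip3, Kcnip4, Kcnc4 and Kcnab1.

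The Kcna1 level of the mole TG rested on 1 library. Kcna1 stood at 615 CPM in mole TG 1 against 121 and 98.8 in mole TG 2 and 3, and at 336, 210 and 322 in mole DRG 1, 2 and 3. Kcnab2 went the other way in that library, at 116 CPM in mole TG 1 against 511 and 579 in mole TG 2 and 3. The Kcna share of the summed level per kb was 24.2% in mole TG 1, 6.61% and 5.62% in mole TG 2 and 3 and 11.7% to 14.7% in the mole DRG, and the Kcnab share was 4.82%, 22.4% and 23.6% in mole TG 1, 2 and 3 and 18.2% to 19.2% in the mole DRG. In the mouse the Kcnab and Kcna shares were 21.4% to 25.5% and 16.8% to 26.6%.

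**Figure D1:**
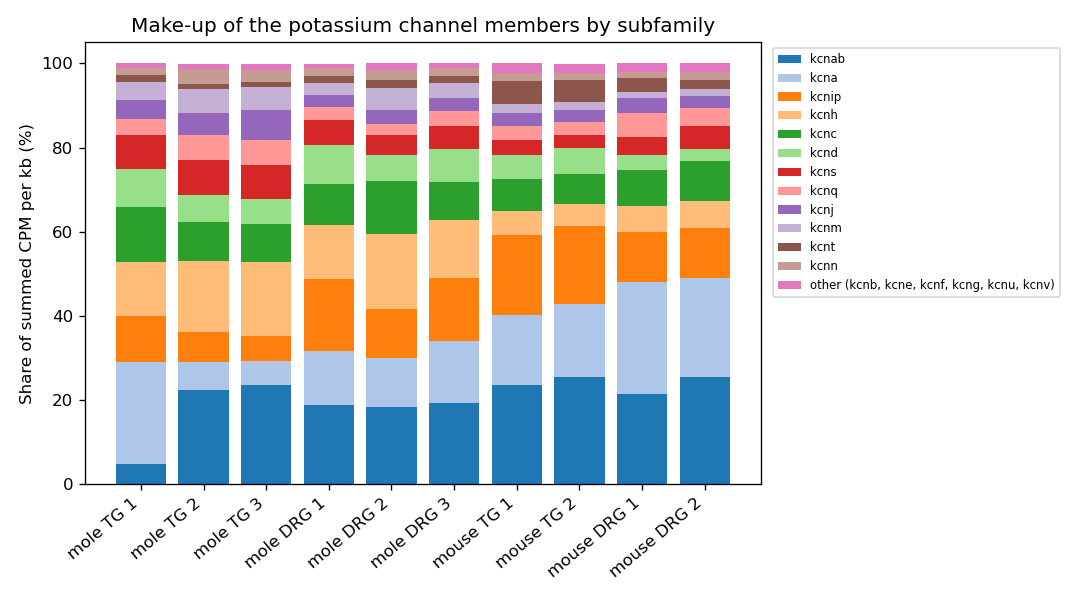
Share of the summed CPM per kb of all members (y axis, %) taken by each subfamily in each library (x axis), 1 stacked bar per library. The Kcna part of mole TG 1 is 24.2% against 6.61% and 5.62% in mole TG 2 and 3, and the Kcnt part is 2.36% to 5.65% in the mouse against 1.011% to 2.002% in the mole.

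The comparison of mole TG with mole DRG asked which channels differ between the ganglion of the star and those of the body. Of 21 members called, 14 were higher in the DRG, most of them subunits of the Kcna, Kcnb, Kcnc and Kcnd families or silent and accessory subunits that join them, with the sodium-activated Kcnt2. The inward rectifier Kcnj4 and both Elk-type channels that were called, Kcnh3 and Kcnh4, were higher in the TG. Of 71 members that passed the filter on low counts, 7 (9.86%) were called higher in the TG, next to 10.5% of all 18078 genes tested, and 14 (19.7%) higher in the DRG, next to 12.9% (edgeR's quasi-likelihood test, Benjamini-Hochberg adjusted p under 0.05). The libraries of the ganglia did not overlap for 13 members with the TG above (18.3%, against 21.7% of all genes) and for 23 with the DRG above (32.4%, against 22.4%). The median log2 change, TG over DRG, was -0.16 over the members and 0.11 over all genes. All 21 calls kept their direction under every alternative, but only Kcna2, Kcna6, Kcnv1, Kcnmb2 and Kcnj4 passed under all 16. Without mole TG 1 and mole DRG 2, 22 members (31.0%) were called for the TG and 30 (42.3%) for the DRG, next to 33.3% and 29.9% of all genes. The member counts fell to 1 and 4 without mole TG 2, 1 and 7 without mole TG 3, 1 and 5 without mole DRG 1, and 1 and 5 without mole DRG 3, where 1.05% to 2.11% of all genes were called for the TG and 1.07% to 2.44% for the DRG. In bulk RNA, fewer cells of a type and less RNA per cell cannot be told apart.

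**Figure D2:**
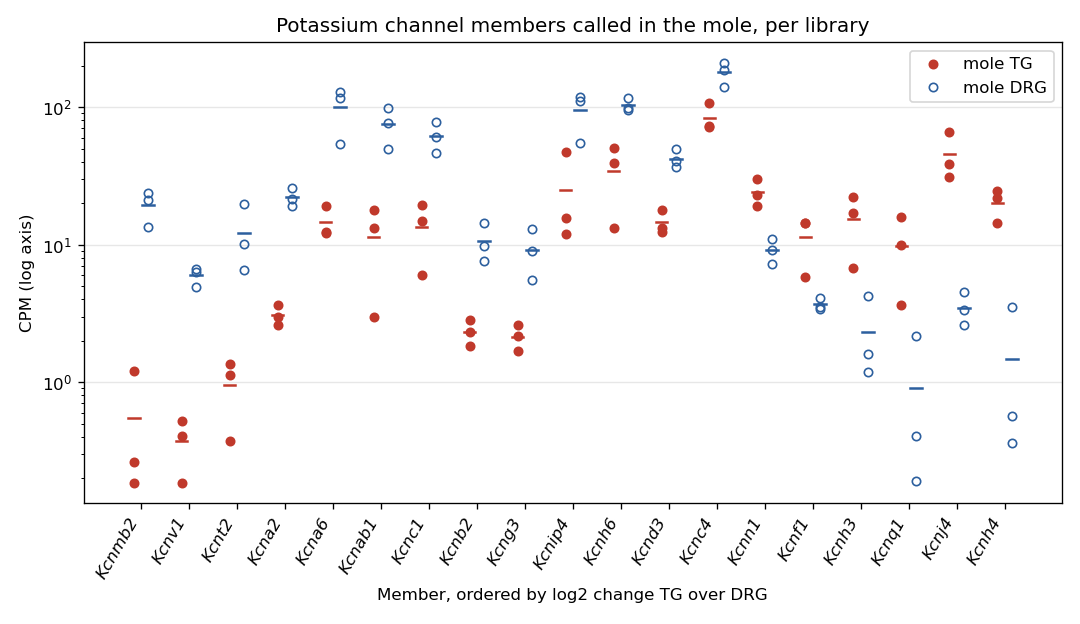
CPM (y axis, log scale) of 19 members called in the mole, 1 point per library, filled for the TG and open for the DRG, with a bar at the mean (n = 3). Members are ordered by log2 change; the 3 TG libraries lie below the 3 DRG libraries from Kcnmb2 to Kcnc4 and above them from Kcnn1 to Kcnh4.

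Among the Shaker-type Kcna channels, which open fast and hold axons below threshold, 2 of 8 members were called, both higher in the DRG. Kcna2, a partner of Kcna1 along myelinated axons, stood at 2.96, 2.61 and 3.66 CPM in mole TG 1, 2 and 3 and at 19.2, 21.5 and 25.7 in mole DRG 1, 2 and 3. The DRG mean was 7.19 times the TG mean in the fit (log2 change -2.85, SE 0.35, edgeR adjusted p 0.0077). Kcna6 stood at 12.4, 12.1 and 19.2 CPM in the TG and at 117, 53.8 and 129 in the DRG, with a log2 change of -2.78 (SE 0.41, edgeR adjusted p 0.00885). For both genes every DRG library lay above every TG library. The accessory subunit Kcnab1, which binds Kcna channels and speeds their inactivation, stood at 2.96, 13.3 and 17.8 CPM in the TG and 77.2, 49.5 and 97.8 in the DRG (log2 change -2.71, SE 0.62, edgeR adjusted p 0.0221). Its call was lost with offsets that remove the trend of each library's counts with GC content (GC offsets), where the adjusted p was 0.121.

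Kcnb2, a delayed rectifier of the cell body, was higher in the DRG. It stood at 2.82, 2.33 and 1.83 CPM in the TG and 9.78, 14.3 and 7.61 in the DRG (log2 change -2.18, SE 0.44, edgeR adjusted p 0.0165), and its call was lost with GC offsets (0.138). Of the silent subunits, which carry no current alone and alter Kcnb channels when they join them, Kcnv1 and Kcng3 were higher in the DRG as well. Kcnv1 was at the edge of detection in the TG, with 3, 2 and 6 reads (0.403, 0.186 and 0.522 CPM) against 67, 50 and 629 reads in the DRG (6.36, 4.88 and 6.67 CPM). Its log2 change was -3.99 (SE 0.59, edgeR adjusted p 0.00886), and every DRG library lay above every TG library. Kcng3 stood at 2.15, 1.67 and 2.61 CPM in the TG and 8.93, 5.56 and 12.9 in the DRG (log2 change -2.09, SE 0.48, edgeR adjusted p 0.0231). The silent subunit Kcnf1 went the other way, at 14.3, 5.77 and 14.3 CPM in the TG and 3.42, 4.10 and 3.51 in the DRG (log2 change 1.64, SE 0.46, edgeR adjusted p 0.0403), and lost its call with GC offsets (0.133). Kcns3, the most abundant silent subunit per kb in both species, stood at 136 to 153 CPM in the TG and 77.7 to 141 in the DRG and was not called.

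Kcnc1 and Kcnc4, of the channels that switch off fast and let neurons fire at high rates, were higher in the DRG. Kcnc1 stood at 6.05, 14.9 and 19.3 CPM in the TG and 78.0, 46.7 and 60.4 in the DRG (log2 change -2.19, SE 0.46, edgeR adjusted p 0.0173), and Kcnc4 at 107, 72.7 and 71.6 in the TG and 187, 208 and 141 in the DRG (log2 change -1.09, SE 0.28, edgeR adjusted p 0.0311). With GC offsets Kcnc1 (adjusted p 0.0118) and Kcnc4 (0.0133) still passed. Of the 3 Kcnd channels, which carry the transient A-type current, Kcnd3 was called, at 17.9, 12.4 and 13.2 CPM in the TG and 40.7, 36.4 and 49.5 in the DRG (log2 change -1.54, SE 0.30, edgeR adjusted p 0.0147). The more abundant Kcnd1 stood at 196 to 301 CPM in the TG and 168 to 397 in the DRG, which overlap. Kcnip4, a calcium-binding subunit of Kcnd channels, stood at 47.5, 15.6 and 12.01 CPM in the TG and 111, 55.2 and 119 in the DRG, and passed narrowly (log2 change -1.93, SE 0.57, edgeR adjusted p 0.046), though not with GC offsets (0.107). Without mole TG 1 the log2 change was -2.85.

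Of the Kcnh family 2 members were called for the TG and 1 for the DRG. The Elk-type Kcnh3 stood at 6.72, 17.0 and 22.4 CPM in the TG and 1.61, 4.20 and 1.19 in the DRG (log2 change 2.75, SE 0.66, edgeR adjusted p 0.0256). With GC offsets its log2 change was 1.62 and the call was lost (0.0802), and without mole DRG 2 it was 3.43. The Elk-type Kcnh4 stood at 14.4, 21.8 and 24.4 CPM in the TG and 0.570, 3.51 and 0.361 in the DRG, where it had 6, 36 and 34 reads (log2 change 3.84, SE 0.88, edgeR adjusted p 0.0224). Without mole DRG 2 its log2 change was 5.46, and with GC offsets it was 2.91 (0.0435). The third Elk-type member, Kcnh8, stood at 6.27 to 6.86 CPM in the TG and 2.83 to 4.94 in the DRG without passing (edgeR adjusted p 0.264). Of the Erg-type channels, Kcnh6 was higher in the DRG, at 13.2, 39.2 and 50.5 CPM in the TG and 117, 95.6 and 97.8 in the DRG (log2 change -1.59, SE 0.46, edgeR adjusted p 0.0435), and Kcnh2 stood at 285 to 327 CPM in the TG and 308 to 323 in the DRG. The log2 change of Kcnh2 was -0.06 with an SE of 0.21, the smallest SE of any member in the mole.

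Among the inward rectifiers, which help hold the resting potential, 1 of 13 tested was called. Kcnj4, a strong rectifier of excitable cells, stood at 30.9, 38.4 and 66.5 CPM in the TG and 3.32, 4.49 and 2.59 in the DRG, and every TG library lay far above every DRG library. The TG level was 13.2 times the DRG level in the fit (log2 change 3.72, SE 0.43, edgeR adjusted p 0.00756). In the mole TG it was also the most abundant per kb, at 21.04 CPM per kb, among the inward rectifiers kept here with a mouse transcript length. The inward rectifier that the selection left out was not compared. The ATP-sensitive pore subunits Kcnj8 and Kcnj11 and the G protein-gated Kcnj3 had DRG libraries above all TG libraries and did not pass (edgeR adjusted p 0.0573, 0.139 and 0.0513).

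Of the calcium- and sodium-activated channels and their subunits, Kcnmb2 had the largest change of any member called. Kcnmb2, a subunit that makes the large-conductance Kcnma1 channel inactivate, had 9, 2 and 3 reads in the TG (1.21, 0.186 and 0.261 CPM) and 141, 216 and 2253 in the DRG (13.4, 21.1 and 23.9 CPM). The log2 change was -5.23 (SE 0.74, edgeR adjusted p 0.00817), and -6.47 without mole TG 1, which held 9 of these TG reads. Kcnma1 itself stood at 23.9, 49.8 and 52.1 CPM in the TG and 34.6, 42.9 and 30.1 in the DRG, which overlap, and Kcnmb4, its most abundant subunit per kb, at 26.8 to 31.4 in the TG and 17.6 to 20.2 in the DRG, which was not called. The sodium-activated Kcnt2 stood at 1.34, 0.372 and 1.13 CPM in the TG and 6.55, 10.1 and 19.6 in the DRG (log2 change -3.68, SE 0.67, edgeR adjusted p 0.0131), whereas its relative Kcnt1 stood at 36.7 to 60.4 in the TG and 50.1 to 70.8 in the DRG, which overlap. The small-conductance channel Kcnn1 was higher in the TG, at 19.0, 29.96 and 23.2 CPM against 10.9, 9.18 and 7.19 in the DRG (log2 change 1.41, SE 0.34, edgeR adjusted p 0.0259). With GC offsets its log2 change was 0.59 and the call was lost (0.214).

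The Kcnq channels, several of which carry the M-current that damps repetitive firing, had 1 call. Kcnq1, better known from heart and epithelia, stood at 3.63, 9.96 and 15.9 CPM in the TG and 0.190, 2.15 and 0.403 in the DRG, where it had 2, 22 and 38 reads (log2 change 3.49, SE 0.97, edgeR adjusted p 0.0381). It was 4.85 without mole DRG 2, and the call was lost with GC offsets (2.72, adjusted p 0.0752). Kcne1l, a small subunit of the family that includes the Kcnq1 partner Kcne1, stood at 2.42, 2.33 and 3.39 CPM in the TG and 0, 0.781 and 0.149 in the DRG. It did not pass (log2 change 3.24, SE 1.07, edgeR adjusted p 0.0625), although it did with DESeq2 (0.00911) and limma-voom (0.0128). The M-current subunits Kcnq3 and Kcnq5 overlapped between the ganglia. Kcnh3, Kcnh4, Kcnj4, Kcnq1, Kcne1l, Kcnmb2, Kcnv1 and Kcnt2 were primer targets of the study, which chose them on these libraries, so their directions are not independent of its choice.

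By role, 7 of 59 pore-forming members tested were called for the mole TG and 11 for the DRG, and of 12 accessory members tested 0 and 3. Of all genes, 10.5% were called for the TG and 12.9% for the DRG. At an unadjusted p under 0.05, 10 members of both roles leaned to the TG and 20 to the DRG. The share of all genes at that unadjusted p was not counted. The GC content of the mouse transcript differed between the calls: its range was 54.2% to 61.2% for the 7 members higher in the TG and 36.6% to 59.6% for the 14 higher in the DRG, and across 70 tested members Spearman's rho with the log2 change was 0.42. With GC offsets the calls were 3 (4.23%) for the TG and 17 (23.9%) for the DRG, next to 4.62% and 8.01% of all genes, and 13 of the 21 members called without them passed.

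**Figure D3:**
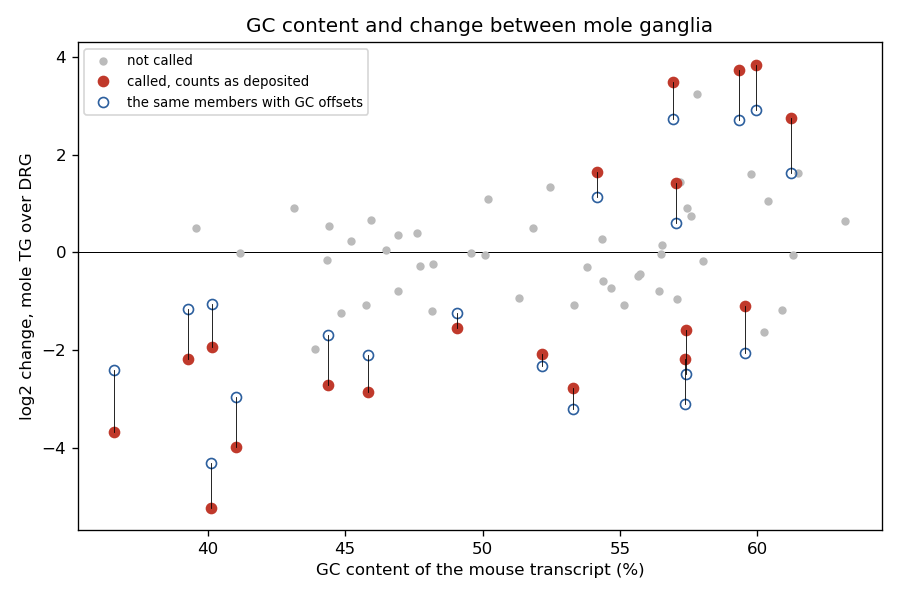
Log2 change between mole TG and DRG (y axis) against GC content of the mouse transcript (x axis, %) for tested members. Red points are 19 called members and open blue points the same members with GC offsets; the 6 of these higher in the TG lie between 54.2% and 61.2% and move towards 0 with the offsets, as do the DRG-higher members of low GC content.

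Genes that work beside these channels were mostly uncalled or higher in the mole DRG. Of 32 partners tested, a list of auxiliary, scaffold and adhesion proteins of potassium channels and of the cation channels they offset, 2 were called for the mole TG and 12 for the DRG. Of all genes, 10.5% and 12.9% were called. The median log2 change of the 32 partners was -0.71, against 0.11 over all genes. Scn10a and Scn11a, among the 12, also stand in the list of nociceptor markers, so the 2 lists are not separate. Dpp10, an auxiliary subunit of Kcnd channels, stood at 16.0, 9.77 and 9.31 CPM in the TG and 61.3, 32.4 and 93.8 in the DRG (log2 change -2.42, edgeR adjusted p 0.014). Lgi1 and Adam22, a secreted ligand and its receptor that bind Kcna channels, had log2 changes of -3.20 and -2.65 (edgeR adjusted p 0.00659 and 0.0111). Lrrc26, an auxiliary subunit of Kcnma1, went the other way, at 2.69, 2.51 and 5.22 CPM in the TG against 0.380, 0.293 and 0.329 in the DRG (log2 change 3.37, edgeR adjusted p 0.0136). So did Lgi4, of the same family as Lgi1, at 124, 274 and 286 CPM in the TG against 64.7, 58.7 and 80.0 in the DRG (log2 change 1.75, edgeR adjusted p 0.0171). The pacemaker channel Hcn3 was higher in the DRG, with a log2 change of -1.96 (edgeR adjusted p 0.00942).

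Markers of some cell types differed between the mole ganglia as well. Of 8 nociceptor markers tested, 6 were called for the mole DRG and 0 for the TG, with a summed level of 1766 to 2428 CPM in the TG and 5218 to 6901 in the DRG. Of 9 myelin markers, 6 were called for the TG and 0 for the DRG, with a summed level of 10450 to 11820 CPM in the TG and 1914 to 3697 in the DRG. Of 8 markers of skeletal muscle, 6 were called for the TG and 0 for the DRG (1381 to 3324 CPM in the TG against 557.5 to 979.4 in the DRG). Of 6 markers of the central nervous system, 5 were called for the TG and 1 for the DRG (69.9 to 305.5 CPM against 16.7 to 22.2). Of 6 general neuron markers 0 were called for the TG and 2 for the DRG (9456 to 14630 CPM against 12530 to 17270), and of 6 satellite glia markers 2 and 1 (7932 to 8798 CPM against 2707 to 3135). Macrophage and immune markers were called for the TG in 2 of 5 (182.5 to 251.7 CPM against 60.4 to 83.5), and 0 of 6 markers of large myelinated neurons were called. Endothelial markers had 1 call for the TG and 1 for the DRG among 5. Mural and smooth muscle markers had 1 for the TG and 0 for the DRG among 8. Keratinocyte markers set mole TG 1 apart, with Krt10 at 381 CPM in that library against 4.56 and 4.35 in mole TG 2 and 3, and their summed level was 23.2 to 764 CPM in the TG and 8.45 to 18.3 in the DRG. No marker of these lists was at 0 in any mole library. The part of these cell types in the channel calls was not tested.

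In the mouse, the members called higher in libraries labelled TG included A-type channel subunits, a sodium-activated channel and a subunit of the calcium-activated Kcnma1, and those called higher in libraries labelled DRG included Kcnj4 and Kcnh3. Of 77 members tested, 10 (13.0%) were higher in libraries labelled TG, against 1.12% of 21394 genes, and 3 (3.90%) in libraries labelled DRG, against 1.21% (edgeR's quasi-likelihood test). The 4 libraries did not overlap by label for 30 members with the labelled TG above (39.0%, against 24.2% of all genes) and for 18 with the labelled DRG above (23.4%, against 23.9%). The median log2 change was 0.03 over the members and -0.02 over all genes. Without mouse TG 1 or without mouse TG 2, where the spread comes from the labelled DRG pair alone, edgeR called 0 members and under 0.12% of all genes in either direction, with 17 and 16 higher in the labelled TG and 9 and 10 in the labelled DRG at an unadjusted p under 0.05. How many of all genes reached that unadjusted p was not counted, so these member counts have no share to stand beside. The log2 changes of the 13 called members moved by at most 0.157 and 0.165 in these fits. Without mouse DRG 1 it called 25 and 14 members, next to 9.38% and 12.8% of all genes, and without mouse DRG 2 22 and 15, next to 4.81% and 5.57%.

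Of the Kcnd channels and their calcium-binding Kcnip subunits, 4 of 7 were called, all higher in libraries labelled TG. Kcnd3 stood at 215 and 240 CPM in mouse TG 1 and 2 and at 103 and 80.9 in mouse DRG 1 and 2 (log2 change 1.31, SE 0.16, edgeR adjusted p 0.02). Kcnip4 stood at 192 and 215 CPM in the labelled TG and 94.8 and 84.6 in the labelled DRG (log2 change 1.18, SE 0.14, edgeR adjusted p 0.0182). Kcnip2 and Kcnd1 moved likewise, with log2 changes of 1.71 (SE 0.25, edgeR adjusted p 0.0303) and 0.72 (SE 0.13, 0.0477). The Kcna partner Kcnab1 had the smallest adjusted p of the members, at 192 and 217 CPM in the labelled TG and 83.8 and 69.6 in the labelled DRG (log2 change 1.41, SE 0.15, edgeR adjusted p 0.016). The sodium-activated Kcnt1, at 384 and 365 against 204 and 157 CPM, had a log2 change of 1.05 (SE 0.16, edgeR adjusted p 0.0335).

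The other members called higher in the labelled TG have varied roles. Kcnmb1, a Kcnma1 subunit best known from smooth muscle, stood at 47.9 and 42.0 against 20.1 and 21.3 CPM (log2 change 1.12, SE 0.16, edgeR adjusted p 0.0299). The Erg-type Kcnh6 had a log2 change of 1.06 (edgeR adjusted p 0.0303), the silent subunit Kcnv1 of 1.48 (0.0399) and the M-current subunit Kcnq5 of 1.65 (0.041). Kcnj4 was higher in the labelled DRG and stood at 5.94 and 6.34 CPM in the labelled TG and 15.6 and 18.5 in the labelled DRG (log2 change -1.47, SE 0.21, edgeR adjusted p 0.0299), and Kcnh3 at 2.79 and 2.25 against 8.49 and 7.496 (log2 change -1.67, SE 0.26, edgeR adjusted p 0.036). The libraries of the labels did not overlap for any of the 13 called members.

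**Figure D4:**
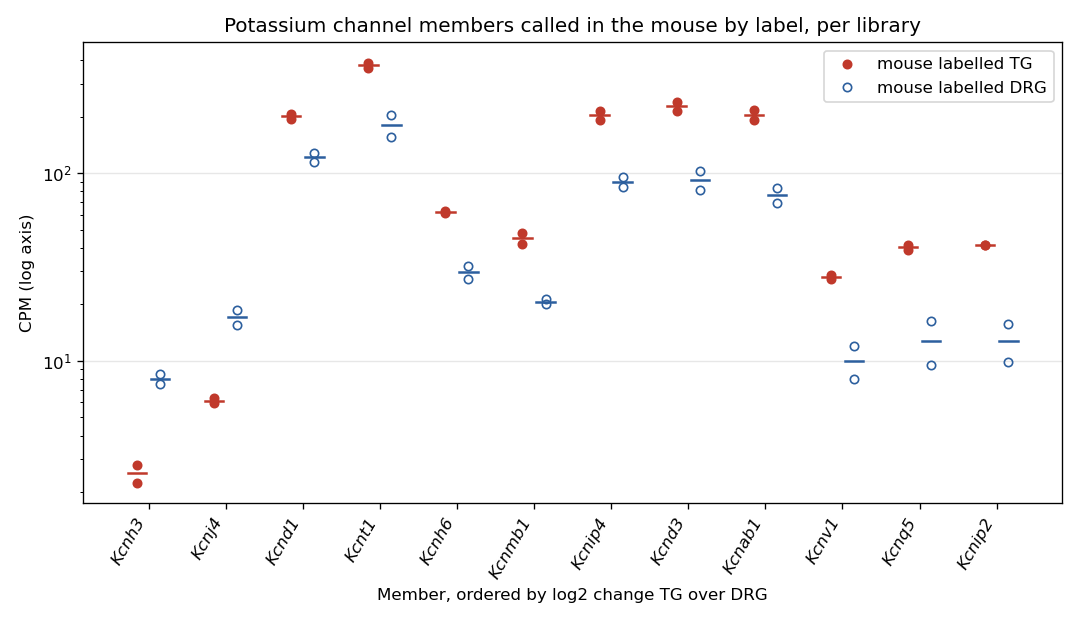
CPM (y axis, log scale) of 12 members called in the mouse, 1 point per library, filled for libraries labelled TG and open for those labelled DRG, with a bar at the mean (n = 2). Kcnh3 and Kcnj4, at the left, have the labelled DRG above, and the other 10 the labelled TG.

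Some cell type markers differed by mouse label too, in the opposite direction to the mole for nociceptors, myelin and the central nervous system. Of 9 nociceptor markers 5 were higher in the labelled TG and 0 in the labelled DRG (summed level 5528 to 5715 against 3048 to 3741 CPM), and of 9 myelin markers 0 and 8 (4282 to 4351 against 10720 to 14050 CPM). Of 6 markers of the central nervous system 0 and 3 were called (15.2 to 21.4 against 94.5 to 110 CPM). The satellite glia marker Apoe set mouse DRG 2 apart, at 2835 CPM against 475 in mouse DRG 1. For skeletal muscle, 7 of 8 markers were called for the labelled TG (48.1 to 65.3 against 4.78 to 4.87 CPM). Of 8 markers of mural and smooth muscle cells, which also express Kcnmb1, 1 was higher in the labelled TG (154 to 164 against 114 to 129 CPM). Of 32 partners tested 3 were called, all higher in the labelled TG: Dpp10 (log2 change 0.98) and the nociceptor sodium channels Scn10a (1.00) and Scn11a (1.27), with edgeR adjusted p 0.0457, 0.0354 and 0.0178. Scn10a and Scn11a are also counted among the nociceptor markers. The part of these cells in the channel calls was not tested.

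Every member called in both species was called in opposite directions by label. These were Kcnab1, Kcnip4, Kcnd3, Kcnh6 and Kcnv1, which the mole DRG and the mouse libraries labelled TG had more of, and Kcnj4 and Kcnh3, which the mole TG and the mouse libraries labelled DRG had more of, 7 of the 27 members called in either species. Of 69 members tested in both, 45 had log2 changes of opposite sign. The share of opposite signs over all genes was not counted, so neither count is shown to be particular to the members. With the mouse direction turned, as if the labels were exchanged, the 7 members called in both species had 1 direction and 45 of the 69 had 1 sign. This follows from the change of sign alone and is not a separate result. The difference itself was tested as an interaction of ganglion and species, for 21580 genes at once. The mole change was above the mouse change for 4 of 77 members (5.19%, against 4.39% of all genes) and below it for 21 (27.3%, against 12.6%). The median difference was -0.68 over the members and -0.16 over all genes with the TMM scaling used here. With the RLE scaling of edgeR they were -0.22 and 0.31, 5 members were called above and 17 below, and the calls over all genes numbered 1570 and 1697 against 948 and 2723 with TMM. The direction of every called difference was the same under both scalings. With the mouse direction turned, 3 members were called above (3.90%, against 1.48% of all genes) and 7 below (9.09%, against 5.77%), and 7 of the 25 members called by label passed, all with the same sign: Kcna2, Kcna6, Kcnc1, Kcnj4, Kcnmb2, Kcnt2 and Kcnv1. Another 4 of the 25 turned in sign, without passing.

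**Figure D5:**
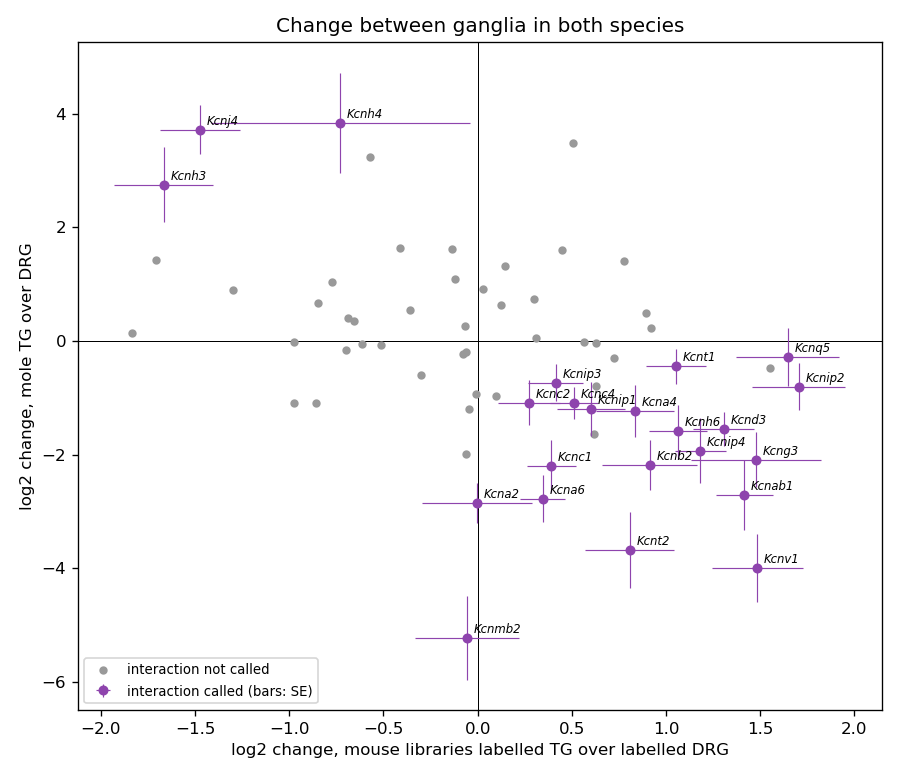
Log2 change of 65 members tested in both species, mole TG over DRG (y axis) against mouse libraries labelled TG over labelled DRG (x axis). Purple points are members with a called interaction, with SE bars; Kcnj4, Kcnh3 and Kcnh4 lie at the upper left and the other called members lie below 0 on the y axis.

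By label, Kcnv1 had a difference of -5.96 (SE 0.65, edgeR adjusted p 0.000665) and Kcnmb2 of -5.66 (edgeR adjusted p 0.00292). For Kcnv1 both species moved, with levels of 0.371 and 5.97 CPM in mole TG and DRG and of 28.0 and 9.98 CPM in mouse libraries labelled TG and DRG, and with the mouse direction turned its difference was -2.84 (edgeR adjusted p 0.0293), against -5.61 (0.0153) for Kcnmb2. For Kcnmb2 the mouse libraries stood at 2.86 to 3.16 CPM labelled TG and 3.02 to 3.24 labelled DRG, and their log2 change was -0.06 (SE 0.27). Kcna2 likewise overlapped by label in the mouse, at 108 and 120 CPM in the labelled TG and 150 and 77.9 in the labelled DRG (difference -3.30, edgeR adjusted p 0.00256). Kcnj4 had the largest difference in the other direction, 4.74 (SE 0.55, edgeR adjusted p 0.000912), with Kcnh4 at 4.17 (0.0353) and Kcnh3 at 3.98 (0.0111). Turned, these were 1.95 (0.0485), 2.85 (0.153) and 0.80 (0.567), and by label the difference of Kcnh4 passed in 6 of 13 alternatives. Kcnh4 was low in the mouse, at 0.342 to 1.20 CPM in the 4 libraries. Kcnb2, both Kcnt channels and all 4 Kcnip subunits had differences below 0 that passed, though those of Kcnip3 and Kcnip1 passed in 3 and 4 of 13 alternatives, while 1 of 14 inward rectifiers (Kcnj4) and 0 of 4 Kcnn channels had one that passed. The 11 members whose difference passed under all 13 alternatives by label included Kcna2, Kcna6, Kcnab1, Kcnb2, Kcnd3, Kcng3, Kcnj4, Kcnmb2, Kcnt2 and Kcnv1.

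Some members were at or near 0. Kcnu1, a channel of sperm, had 0 counts in the 3 mole TG libraries. The limit that 0 allows, 3 counts, is 0.403 CPM in mole TG 1 and 0.261 CPM in mole TG 3. Kcnu1 stood at 0 to 0.293 CPM in the mole DRG and at 4.84 to 6.20 CPM in the mouse. The 8 members not tested in the mole, because too few reads passed the filter, were Kcne1, Kcne2, Kcne4, Kcnj1, Kcnj6, Kcnmb1, Kcnu1 and Kcnv2, each at 3.48 CPM or less in every mole library. Kcne2 was listed at 0 in 5 of the 6 mole libraries and at 0.110 to 0.390 CPM in the mouse. Limits and counts cover counting error only.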

How the data were processed

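Poly-A RNA of TG and DRG was sequenced by the authors, in single reads from the mole and paired reads from the mouse. The methods of the paper differ here, as they name single-end sequencing only. The authors aligned reads with Stampy, those of the mole to transcripts of human, dog and mouse in that order, and deposited counts per gene, which for the mole are sums over homologs (HomoloGene). Mouse reads were counted on mouse transcripts. A further mouse sample of each ganglion was not analysed here. Lists of genes that the authors called were not used. Some genes counted among the calls are not reported here by name, nor plotted where genes are labelled.

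Tests of the counts used edgeR 4.0.16 (under R 4.3.3) within each species, with filterByExpr (minimum count 10), TMM factors, the quasi-likelihood test and a Benjamini-Hochberg adjusted p under 0.05, and as an interaction over 24049 shared symbols. SE is the size of the log2 change divided by the square root of F. CPM use the TMM-scaled totals. DESeq2 1.42.0 and limma 3.58.1 (voom) were alternatives, as were RLE factors, no filter, a replicate block, GC offsets, libraries left out, counts thinned to the smallest mole library and, chosen after seeing the data, a turned mouse direction (the sum of both changes in the interaction fit). Tests were tried on simulated data. Lengths, GC content, positions and sequences are those of the mouse gene (GENCODE M21, GRCm38). Members, lists and tests were chosen with earlier results of these data known, and genes were named where called (at most 12 per direction and comparison, by adjusted p), where the study had primers, or where highest per kb in their subfamily. Further members are named with their values as examples chosen after these were seen. Replicate numbers are shared across ganglia, but same-numbered mole samples deviated together with correlations of 0.244, 0.417 and -0.107, so the numbers were not taken as pairs.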

Additional observations from a re-analysis of the deposited data

Results flagged for a closer look

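The change between ganglia differed between mole and mouse, by the test of the difference itself (the interaction in edgeR, adjusted p under 0.05), for 25 members, and the mouse direction rests on labels that the Hox genes go against. With that direction turned, 7 of these passed with the same sign (Kcna2, Kcna6, Kcnc1, Kcnj4, Kcnmb2, Kcnt2 and Kcnv1), and Kcnv1, Kcnab1, Kcnd3, Kcnj4 and Kcnh3 came to -2.84, -1.62, -0.55, 1.95 and 0.80. Differences are given below by label as log2, mole TG over DRG minus mouse labelled TG over labelled DRG. Among these, the mole change was above the mouse change for Kcnj4 (4.74), Kcnh4 (4.17) and Kcnh3 (3.98). It was below for the Kcna channels Kcna6 (-3.60), Kcna2 (-3.30) and Kcna4 (-2.55) and their subunit Kcnab1 (-4.61). Of the delayed rectifiers and their silent partners, it was below for Kcnv1 (-5.96), Kcng3 (-4.05) and Kcnb2 (-3.55). It was also below for Kcnc1 (-3.07), Kcnc4 (-2.06) and Kcnc2 (-1.83). The A-type channel Kcnd3 (-3.31) and its subunits Kcnip4 (-3.58), Kcnip2 (-2.97), Kcnip1 (-2.28) and Kcnip3 (-1.62) were below as well. The others were Kcnmb2 (-5.66), Kcnt2 (-4.97), Kcnh6 (-3.13), Kcnq5 (-2.40) and Kcnt1 (-1.96). The smallest adjusted p was 0.000665 (Kcnv1) and the largest 0.0479 (Kcnq5), and of 13 alternatives Kcnip3 passed in 3, Kcnip1, Kcnc2 and Kcnq5 in 4, Kcnh4 in 6 and Kcna4 in 8.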

How the results depend on the processing

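All 21 mole calls, 13 mouse calls and 25 differences by label kept their direction under every alternative, while 5, 0 and 11 passed under all. In the mole (7 members higher in the TG, 14 in the DRG), the counts were 12 and 15 with limma-voom, 4 and 15 with no filter on low counts, 3 and 17 with GC offsets, 3 and 16 with GC offsets and the replicate block, 3 and 13 in the TruSeq libraries alone, and 22 and 30 without mole TG 1 and mole DRG 2. Of all genes, 18.7% and 16.4% were called with limma-voom, 3.92% and 7.75% with no filter and 4.62% and 8.01% with GC offsets. They were 3.84% and 6.26% with GC offsets and block, 4.76% and 10.2% in TruSeq libraries, and 33.3% and 29.9% without those 2 libraries. In the same order the TG shares of the members were 16.9%, 5.06%, 4.23%, 4.23%, 4.05% and 31%, near those of all genes. Their DRG shares were 21.1%, 19%, 23.9%, 22.5%, 17.6% and 42.3%, each above that of all genes. With 1 library left out the member counts ranged from 1 to 10 and from 4 to 20, next to 1.05% to 18.5% and 1.07% to 18.8% of all genes. The replicate block alone gave member counts of 6 and 15, next to 9.01% and 11% of all genes. In the mouse (10 and 3) they were 21 and 11 with DESeq2, 11 and 9 with no filter, 9 and 7 with the replicate block, 14 and 6 with GC offsets, 10 and 1 with GC offsets and the replicate block, and 0 to 25 and 0 to 15 with 1 library left out. Same-numbered mouse samples deviated in opposite directions (correlation -0.369). With 2 libraries a group the deviations mirror each other, so the crossed pairs necessarily correlate at 0.369. These values cannot show which samples are pairs. A crossed pairing, chosen after seeing the data, gave 23 and 12. Counts over all genes moved as well, for the mole from 1899 and 2341 to 3373 and 2970 with limma-voom and 836 and 1448 with GC offsets, and for the mouse from 240 and 258 to 767 and 1031 with DESeq2 and 965 and 1318 with the crossed pairing. As shares of all genes, the mouse calls were 3.59% and 4.82% with DESeq2, 1.53% and 1.7% with no filter and 1.13% and 1.47% with the replicate block. They were 1.95% and 1.75% with GC offsets, 1.12% and 1.08% with GC offsets and block, and 4.51% and 6.16% with the crossed pairing. For the differences, DESeq2 called 13.4% of all genes above and 12.3% below. The differences (4 above, 21 below) numbered 12 and 21 with DESeq2. With the mouse direction turned (chosen after seeing the data) they numbered 3 and 7, and Kcnip2 (0.59), Kcnq5 (1.04) and Kcnt1 (0.30) changed sign. With 1 mole library left out they numbered 3 to 8 and 16 to 27, next to 2.5% to 10.3% and 7.41% to 20.9% of all genes. Leaving out 1 mouse library leaves 1 in its group. In those fits the median difference was -0.62 to -0.48 over the members and -0.22 to -0.12 over all genes. Of values that were not called, the mouse log2 change of Kcnmb2 ranged from -0.11 to 0.019 (above 0 without mouse TG 1) and that of Kcnh4 from -1.36 to 0.45 (above 0 without mouse DRG 1) with 1 library left out. The cause of these shifts was not tested. GC content was known for 70 of 71 tested members but for 75.6% of the genes tested in the mole, and the rest were left unadjusted. With 3 and 2 libraries a group, and 0.4 CPM or less behind several mole TG values, small changes could not be detected.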
